A study of Mus musculus with 16 samples.

Results

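The genes described here are T, EOMES, MIXL1, MESP1, HAND1, GATA4, GATA6, FOXA2, AFP and TTR, taken as named in the deposited array table by their target name. They were represented by 13 probes of the 45281 in the table, and by 10 of its 30854 target names. Tests were run on genes whose probe was detected (p-value under 0.05) throughout at least 1 group of arrays, which T and GATA6 met and the other 8 genes did not.

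Mouse ES cells of a τ-EGFP knock-in line (EGFP driven by the τ promoter) had been seeded on a layer of PA6 stroma, a line from murine bone marrow, and this stroma was also cultured without ES cells. All cultures were kept in serum-free N2B27 medium and harvested on day 7. They received no growth factor (-GFs), human FGF2 at 20 ng/ml or murine BMP4 at 10 ng/ml per the labels (a lower BMP4 dose stands in the study's methods), and a factor was present during the first 3 days. There were 2 arrays of ES/PA6 co-cultures in -GFs medium, 3 with FGF2 and 2 with BMP4, besides 3 arrays of PA6 mono-cultures per condition. One ES line and 1 stromal line stand behind all 16 arrays, and each co-culture array holds RNA of both.

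In the mouse embryo, mesoderm and definitive endoderm arise from epiblast cells that pass through the primitive streak, where WNT, Nodal and BMP signals switch on T-box and homeobox factors such as T, EOMES and MIXL1. Cells that leave the streak then express MESP1, HAND1 and GATA factors on the way to heart and lateral mesoderm, or FOXA2 on the way to gut endoderm. AFP and TTR are secreted proteins of visceral endoderm and liver. Several of these genes also serve elsewhere, FOXA2 in the floor plate of the neural tube, TTR in the choroid plexus, HAND1 in trophoblast and GATA6 in various mesenchymal cells.

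T was the member detected on every co-culture array and on no PA6 array, so the stretch before its start site is shown. The following 250 bases precede the first transcribed base of T in the RefSeq table of build GRCm38.p6, at chr17:8434173-8434422 on the plus strand. Capitals mark the core letters CTTTGA of the TCF/LEF factors that act at the end of the WNT pathway, searched on both strands and found once, here as the reverse strand reads.
T: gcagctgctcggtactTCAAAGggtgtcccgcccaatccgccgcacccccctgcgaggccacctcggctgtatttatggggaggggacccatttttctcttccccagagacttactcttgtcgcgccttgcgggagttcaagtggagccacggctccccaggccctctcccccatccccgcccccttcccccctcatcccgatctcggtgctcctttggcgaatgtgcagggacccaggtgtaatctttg
The match lay 234 to 229 bases before the start site. Of 32851 promoter windows of the same length in that table, 4544 (13.8%) held these letters, so the match describes the sequence and says nothing of binding, which was not measured.

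Most of the panel was not measurable above the array's negative controls on nearly all arrays. The 11 probes of the 8 untested genes passed the detection threshold on 9 of 176 probe and array pairs, or 5.11%, where the threshold itself lets through 5% of negative controls. MIXL1, MESP1, HAND1 and TTR were detected on 0 of 16 arrays, and EOMES, FOXA2, GATA4 and AFP on 1 to 3 arrays each.

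**Figure D1:**
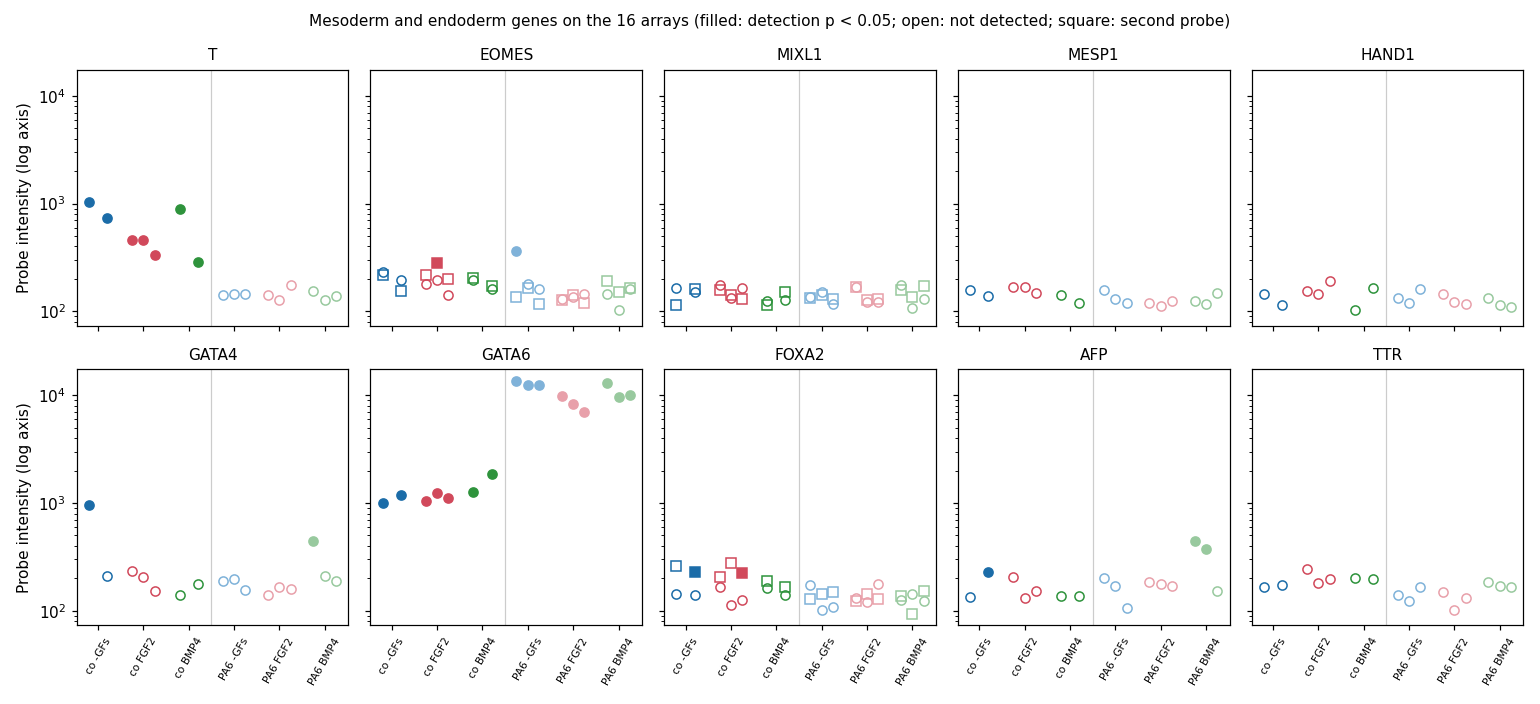
Probe intensity as deposited (log axis) of the 10 genes on each of the 16 arrays, in 6 groups (co, ES/PA6 co-culture; PA6, mono-culture). Filled symbols mark a detection p-value under 0.05 and squares the second probe of a gene. T was detected on the 7 co-culture arrays and GATA6 on all 16, while the other 8 genes lay near background on nearly all arrays.

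Among the factors of the primitive streak, T (brachyury), the T-box factor of the streak, nascent mesoderm and notochord, was read by probe ILMN_1244340 on 7 of 16 arrays. EOMES, a T-box factor needed for streak cells to become endoderm and cardiac mesoderm, had 2 probes with 1 detected array each. For ILMN_2570496 that array was FGF2 co-culture replicate 2 (intensity 283.2, all other arrays 116.3 to 218.8), and for ILMN_1251446 it was -GFs PA6 replicate 1 (360.4). The probes therefore did not point to the same culture. MIXL1, a homeobox factor of streak mesendoderm, was detected on 0 of 16 arrays by ILMN_1245893 (107.2 to 177.2) and by ILMN_2920173 (113.2 to 173.3). MESP1, the bHLH factor of the earliest cardiac progenitors, was likewise at 0 of 16 (ILMN_2687727, 111.0 to 168.4, lowest detection p-value 0.337).

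Among the factors of later mesoderm, HAND1, a bHLH factor of lateral mesoderm, heart and trophoblast, was detected on 0 of 16 arrays (ILMN_2689456, 103.6 to 189.8). GATA4, a zinc finger factor of heart and primitive endoderm, was detected on 2 of 16 arrays by ILMN_2817903. Its intensity was 964.0 in -GFs co-culture replicate 1 but 209.5 in replicate 2, and 445.6 in BMP4 PA6 replicate 1, while the undetected arrays read 138.5 to 234.2. A single array of each group thus carried the GATA4 signal, and no group was detected throughout. GATA6, the related factor, was detected on 16 of 16 arrays by ILMN_2868133.

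Among the endoderm genes, FOXA2, a forkhead factor of definitive endoderm, node and floor plate, was detected on 0 of 16 arrays by ILMN_1229325 (101.1 to 175.5) and on 2 of 16 by ILMN_1246216. Those were -GFs co-culture replicate 2 (228.3) and FGF2 co-culture replicate 3 (222.5). The second probe read 167.0 to 274.7 over the 7 co-culture arrays and 93.6 to 153.7 over the 9 PA6 arrays, so these ranges did not overlap although few of the readings passed the threshold. AFP, the serum protein of yolk sac and fetal liver, was detected on 3 of 16 arrays by ILMN_1245472, in -GFs co-culture replicate 2 (227.6) and in BMP4 PA6 replicates 1 (444.7) and 2 (376.0) but not 3 (151.4). TTR, the carrier of thyroid hormone and retinol-binding protein, was detected on 0 of 16 arrays by ILMN_2443330 (101.3 to 245.9), with a lowest detection p-value of 0.0748. With all probes tested regardless of detection, GATA4 was called between cultures without growth factors (limma adjusted p = 0.0847) and AFP with BMP4 (adjusted p = 0.0328). Each call rests on the arrays just named and was made against a group with 0 detected arrays, so no fold is given. Lower adjusted p were reached by FOXA2 without growth factors (limma, 0.00303) and with FGF2 (0.00374), and by TTR with FGF2 (0.00486). These differed by less than 1 on the log2 scale and were not called.

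T was present in the co-cultures under all 3 conditions, at a level that differed most between the arrays with BMP4. Its intensity was 1039.6 and 731.9 in -GFs co-cultures, 462.8, 462.6 and 334.3 with FGF2, and 895.5 and 285.6 with BMP4. The arrays with FGF2 were all below those in -GFs medium, whereas 1 array with BMP4 was among the -GFs values and the other was the lowest of the 7. On the normalized log2 scale the means were 9.51 ± 0.42 (SD, n = 2) in -GFs medium, 7.74 ± 0.29 (n = 3) with FGF2 and 8.41 ± 1.77 (n = 2) with BMP4. In bulk RNA, fewer T-expressing cells and less T transcript per cell cannot be told apart.

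Calls required an adjusted p from limma (Benjamini-Hochberg) under 0.1 and a log2 difference over 1 in size. With FGF2 against -GFs medium, T differed by -1.77 ± 0.65 (SE; 3.41-fold lower, limma adjusted p = 0.166) and was not called. The groups did not overlap, which 2 and 3 arrays can readily do by chance. With either array with BMP4 left out, the same difference had an adjusted p of 0.0232, and it was also called with the runs of table columns as a block (-2.15, adjusted p = 0.0668). Within runs, the difference was -2.03 in the first and -1.78 in the third. With BMP4 against -GFs medium, T differed by -1.09 ± 0.72 (adjusted p = 0.568), and the value was -2.34 without BMP4 replicate 1 (adjusted p = 0.0906) but 0.16 without BMP4 replicate 2. In the third run, which alone held both, it was -2.05. BMP4 against FGF2 gave 0.68 ± 0.65 (adjusted p = 0.717), with 1.66 and -0.27 within the runs that held both. The comparisons with -GFs medium share its 2 arrays. In order, T was highest in -GFs medium, then with BMP4, then with FGF2, and no neighbours in that order were called.

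GATA6 in the co-cultures read 1010.1 and 1187.1 in -GFs medium, 1050.0, 1235.0 and 1112.8 with FGF2, and 1277.3 and 1872.4 with BMP4. Both arrays with BMP4 were above the other 5, and the FGF2 and -GFs arrays overlapped. The normalized means were 9.90 ± 0.22 (SD, n = 2), 9.86 ± 0.27 (n = 3) and 10.55 ± 0.35 (n = 2). BMP4 differed from -GFs medium by 0.65 ± 0.27 (SE; limma adjusted p = 0.324) and from FGF2 by 0.69 ± 0.25 (adjusted p = 0.273), and FGF2 from -GFs medium by -0.04 ± 0.25 (adjusted p = 0.944, with a sign that turned under median scaling). None of these was called.

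**Figure D2:**
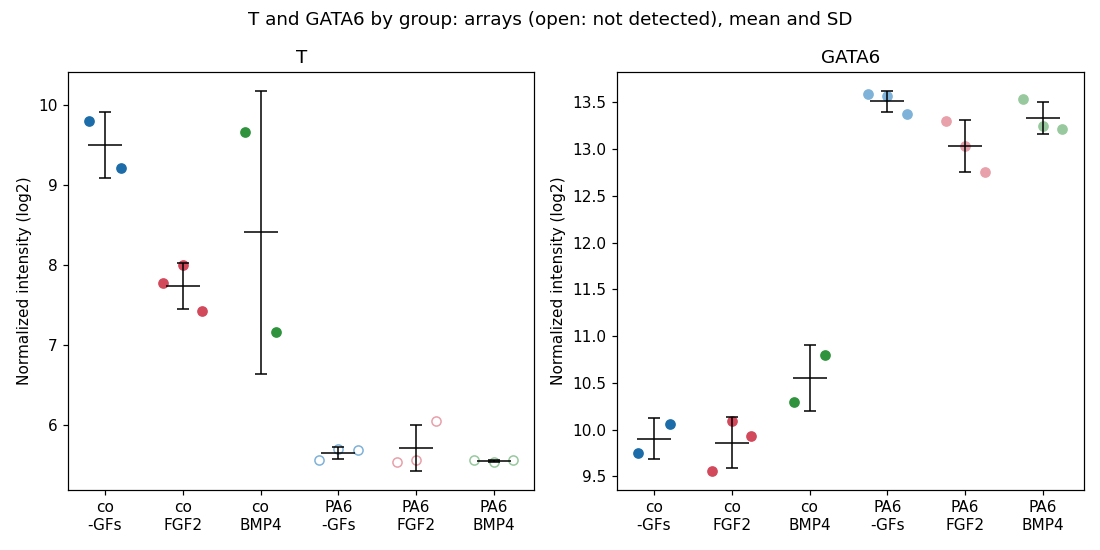
Normalized log2 intensity of T (left) and GATA6 (right) by group; points are arrays (open, not detected), bars the mean and SD of 2 or 3 arrays. T was above background in co-cultures alone and split between the BMP4 arrays (9.66 and 7.16), and GATA6 was higher in PA6 mono-cultures than in co-cultures under each condition.

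Of the 2 members tested, therefore, 0 were called in each comparison within the co-cultures. Over all 14829 genes tested, the same rule called 7.42% with FGF2 against -GFs medium, 3.75% with BMP4 against -GFs medium and 1.44% with BMP4 against FGF2.

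Between kinds of culture, T and GATA6 lay on opposite sides. T was undetected on the 9 PA6 arrays, which read 127.4 to 175.4, so its co-culture signal is given as a lower bound against the detection level. It was at least 7.04-fold higher in co-cultures than in PA6 cells without growth factors (limma adjusted p = 1.27e-05), at least 1.91-fold with FGF2 (adjusted p = 0.00104) and at least 2.96-fold with BMP4 (adjusted p = 0.000198). All 7 co-culture arrays were above all 9 PA6 arrays.

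GATA6 was the member detected on every PA6 array, and its level there exceeded that of the co-cultures. PA6 mono-cultures read 13699.7, 12602.5 and 12429.2 in -GFs medium, 9952.8, 8401.6 and 6970.0 with FGF2, and 13012.5, 9650.2 and 10004.9 with BMP4. The lowest of these was well above the highest co-culture reading of 1872.4. GATA6 was 12.2-fold lower in co-cultures than in PA6 cells without growth factors (log2 difference -3.61 ± 0.22 SE, adjusted p = 1.17e-08), 8.996-fold lower with FGF2 (-3.17 ± 0.19, adjusted p = 9.05e-09) and 6.88-fold lower with BMP4 (-2.78 ± 0.22, adjusted p = 1.60e-07).

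Both tested members were called in each of these 3 comparisons, in which the rule called 44.1%, 46.4% and 42.4% of all genes, so calls were common there. T passed the detection filter through the co-cultures, the side on which it is high, so its call is no independent support for that difference. Most markers of the stroma moved with GATA6. All 8 stromal genes of the list (collagens, VCAM1, CXCL12, LUM, DCN, PDGFRB) were detected on all 16 arrays, and 6 of 8 were called lower in co-cultures under each condition. DCN and LUM were not, and with BMP4 LUM averaged 9.48 in co-cultures against 8.63 in PA6 cells. The mean log2 level of the 8 genes was 11.04 to 11.80 over co-culture arrays against 13.14 to 13.71 over PA6 arrays. Their median difference was -2.73, -2.36 and -1.70 in the order of conditions above, and the part that the share of stromal RNA has in the GATA6 difference was not tested. Neural and pluripotent genes moved with T across cultures: the 6 neural genes tested averaged 9.75 to 11.19 in co-cultures and 5.92 to 6.48 in PA6 cells, and the 8 pluripotent genes 9.50 to 12.00 and 5.75 to 6.30. So did surface ectoderm (7.48 to 10.32 and 5.85 to 6.21), trophoblast (7.88 to 9.93 and 5.95 to 7.18) and floor plate and choroid plexus genes (7.71 to 8.87 and 5.64 to 5.81). Of these marker lists, only the endothelial ranges overlapped. Genes near background in PA6 cells passed the detection filter through the co-cultures, the side on which they are high.

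In PA6 mono-cultures the growth factors left both members without a call. GATA6 averaged 13.51 ± 0.11 (SD, n = 3) in -GFs medium, 13.03 ± 0.28 with FGF2 and 13.33 ± 0.17 with BMP4. FGF2 against -GFs medium gave -0.48 ± 0.17 (SE; limma adjusted p = 0.381), with all 3 arrays below all 3 controls. BMP4 gave -0.18 ± 0.17 (adjusted p = 0.772) and BMP4 against FGF2 0.30 ± 0.17 (adjusted p = 0.646), each with overlapping arrays. Within the 3 runs of columns the GATA6 difference was -0.28, -0.53 and -0.63 for FGF2, -0.05, -0.32 and -0.16 for BMP4 and 0.23, 0.21 and 0.47 for BMP4 against FGF2, so each kept 1 sign. With the replicate number, here the same as the run, as a block, their adjusted p was 0.229, 0.621 and 0.418. T was undetected throughout, so no fold is given. The rule called 0.0270% of all genes with FGF2, 0% with BMP4 (limma; 1334 genes had an unadjusted p under 0.05) and 0.310% between the factors (0.486% with the replicate block).

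Whether a growth factor acted differently in the presence of ES cells was tested as the effect in co-cultures minus the effect in PA6 cells, over all 16 arrays. For T this difference was -1.83 ± 0.66 for FGF2 (SE; limma adjusted p = 0.121) and -0.99 ± 0.69 for BMP4 (adjusted p = 0.544). The BMP4 value of T ran from -2.24 to 0.26, depending on which BMP4 co-culture array was left out. For GATA6 it was 0.44 ± 0.29 for FGF2 (adjusted p = 0.423) and 0.82 ± 0.31 for BMP4 (adjusted p = 0.206). No member was called, against 7.90% and 4.23% of all genes, and without either BMP4 co-culture array the T difference for FGF2 had an adjusted p of 0.00318. Since T is at background in PA6 cells, its difference rests on the co-cultures.

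Other genes of the same lineages were read from lists that hold no member. Of 15 further primitive streak and early mesoderm genes on the array, 11 were tested. FGF2 raised NODAL, the TGFβ-family ligand that maintains the streak, which read 9.86 and 9.76 in -GFs medium and 12.12, 12.35 and 11.67 with FGF2 (log2 difference 2.23 ± 0.36 SE, limma adjusted p = 0.0175; 0.105 without -GFs replicate 1). WNT3A, the WNT ligand of streak and tail bud, fell with FGF2, from 9.28 and 8.97 to 7.57, 6.25 and 7.74 (-1.94 ± 0.47, adjusted p = 0.0585; up to 0.238 without a -GFs array, and 0.101 with the replicate block). With BMP4 it read 9.58 and 10.34, which was 2.77 ± 0.47 above FGF2 (adjusted p = 0.0729; up to 0.370 with 1 array left out, the call holding in 3 of 7 such fits, and 0.153 with the replicate block).

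The direction of WNT3A with FGF2 was that of T, but the arrays with BMP4 were both high for WNT3A and split for T. SP5, a zinc finger target of WNT signals, rose with BMP4, from 7.96 and 7.16 to 10.22 and 9.13 (2.12 ± 0.47, adjusted p = 0.0790; up to 0.328 with 1 array left out, the call holding in 3 of 7 such fits, and 0.215 with the column run block). Thus 1 of 11 streak genes rose and 1 fell with FGF2, and 1 rose and 0 fell with BMP4. Over all genes tested, the rule called 5.07% higher and 2.35% lower with FGF2, and 2.28% and 1.47% with BMP4, against -GFs medium. With BMP4 against FGF2 it called 0.755% higher and 0.688% lower. These shares also belong beside the counts of the other lists below. The medians of the 11 differences were 0.37 and 0.51, beside -0.06 and -0.00 over all genes.

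Of 18 genes of lateral plate, cardiac and blood mesoderm on the array, 9 were tested, and 0 rose and 0 fell in each of the 3 comparisons within the co-cultures. Their median difference was -0.29 with FGF2 and 0.22 with BMP4 against -GFs medium. Between cultures, 4 were called higher and 3 lower in co-cultures than in PA6 cells without growth factors. In that comparison the rule called 22.3% of all genes higher and 21.8% lower.

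Of 11 definitive endoderm and gut genes on the array, 8 were tested. SOX17, the HMG-box factor of endoderm and of endothelial cells, was undetected in -GFs co-cultures (log2 5.89 and 5.79) and read 7.85 and 7.78 with BMP4, at least 2.43-fold higher (adjusted p = 0.0109, called without any 1 co-culture array). It was 1.23 ± 0.19 above FGF2 on the log2 scale (adjusted p = 0.0633; up to 0.305 with 1 array left out, the call holding in 2 of 7 such fits, and a difference of 0.63 without background correction). SPINK3, a secreted trypsin inhibitor of gut and pancreas, rose with BMP4 from 8.10 and 7.75 to 10.76 and 11.28 (3.09 ± 0.52, adjusted p = 0.0382; up to 0.145 and lost without any 1 of these 4 arrays, and 0.103 with the column run block).

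HHEX, a homeobox factor of anterior endoderm and of blood and vessel precursors, rose with FGF2 from 8.31 and 8.35 to 9.99, 10.63 and 9.84 (1.83 ± 0.25, adjusted p = 0.0111, called without any 1 array). CXCR4, the chemokine receptor of endoderm and of many other cells, fell with FGF2 (-1.34 ± 0.23, adjusted p = 0.0226; 0.136 without -GFs replicate 1) and with BMP4 (-1.32 ± 0.26, adjusted p = 0.0554; up to 0.280 and lost without any 1 array with BMP4 or in -GFs medium, and 0.111 with the column run block), against the same 2 controls. In counts, 1 of 8 rose and 1 fell with FGF2, and 2 rose and 1 fell with BMP4, with median differences of 0.76 and 0.61. Of all genes, 5.07% rose and 2.35% fell with FGF2, and 2.28% rose and 1.47% fell with BMP4. SOX17 was near background in PA6 cells too, so it passed the detection filter through co-cultures with a factor, where it is high. Its call against -GFs medium is therefore no independent support for that rise.

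Of 24 extraembryonic endoderm and liver genes on the array, 15 were tested, and 2 rose with FGF2 and 1 with BMP4, while 0 fell. Of all genes, 5.07% rose with FGF2 and 2.28% with BMP4. AMN, the membrane anchor of the cubilin receptor in visceral endoderm, rose with FGF2 from 5.94 and 6.73 to 7.30, 7.81 and 7.93 (1.35 ± 0.30, adjusted p = 0.0458; up to 0.215 and lost without -GFs replicate 1 or FGF2 replicate 2 or 3; a difference of 0.70 without background correction). TRF, transferrin, was undetected in -GFs co-cultures and with FGF2 it was at least 1.98-fold higher (adjusted p = 0.0269; 0.150 without -GFs replicate 1, and a difference of 0.65 without background correction). STRA6, the receptor for retinol-binding protein, was at least 2.11-fold higher with BMP4 than in -GFs medium (adjusted p = 0.0811; up to 0.328, held in 2 of 7 fits with 1 array left out; a difference of 0.65 without background correction) and at least 2.20-fold higher than with FGF2 (adjusted p = 0.0851; up to 0.360, held in 1 of 7; a difference of 0.77 without background correction). TRF passed the detection filter through the co-cultures with FGF2 and STRA6 through those with BMP4, where each is high. Their calls are therefore no independent support for these rises. The medians of the 15 differences were 0.16 with FGF2 and 0.30 with BMP4.

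**Figure D3:**
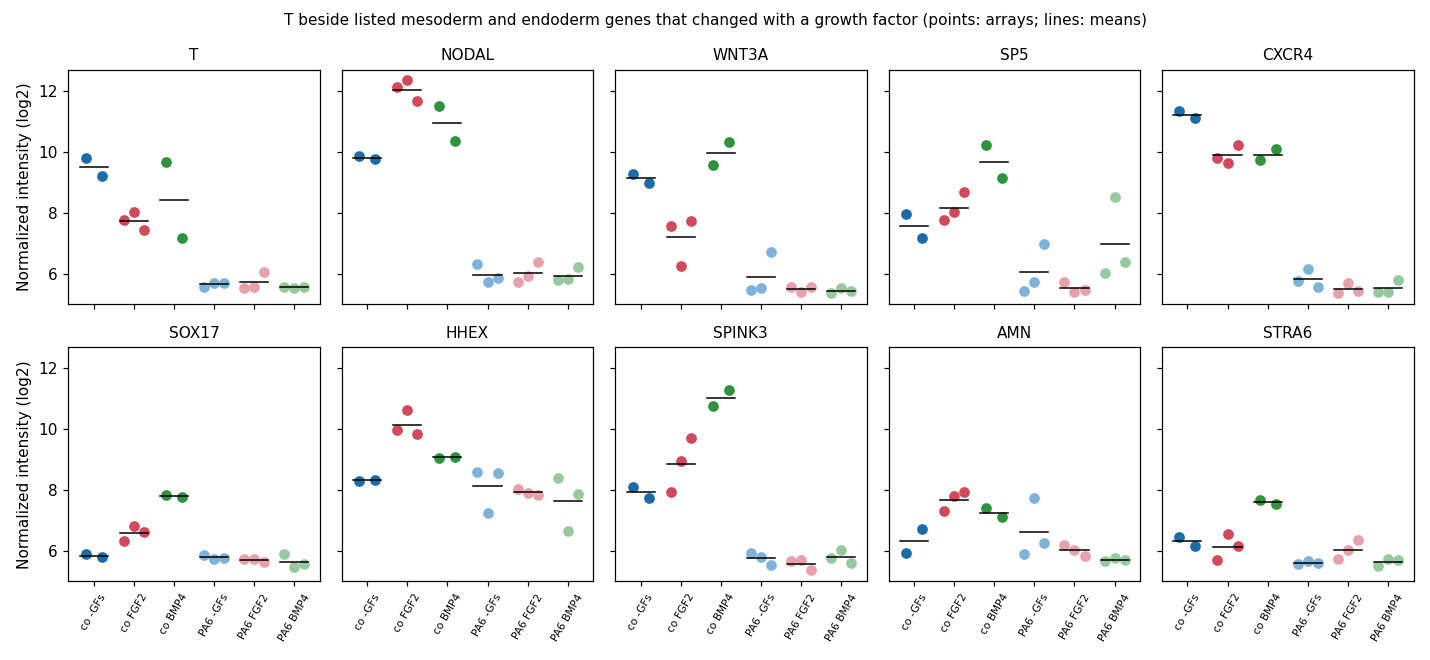
Normalized log2 intensity of T beside 9 listed streak and endoderm genes that were called in a comparison within the co-cultures; points are arrays, lines group means. NODAL and HHEX were highest with FGF2, WNT3A, SP5, SOX17, SPINK3 and STRA6 with BMP4, and CXCR4 in -GFs medium.

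More streak, definitive endoderm and lateral plate, cardiac and blood genes were above background per co-culture array than per PA6 array, without overlap. For the members and the extraembryonic list the counts overlapped. Over all probes, 40.5% to 47.0% were detected per co-culture array and 37.3% to 41.3% per PA6 array. Of the 10 members, 2 to 4 were detected per co-culture array and 1 to 3 per PA6 array. Of the 15 streak genes, 8 to 12 were detected per co-culture array and 2 to 4 per PA6 array, and of the 11 definitive endoderm genes 6 to 8 and 1 to 4. For lateral plate, cardiac and blood mesoderm (18 genes) the counts were 7 to 13 and 4 to 6, and for extraembryonic endoderm and liver (24 genes) 9 to 17 and 6 to 9.

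**Figure D4:**
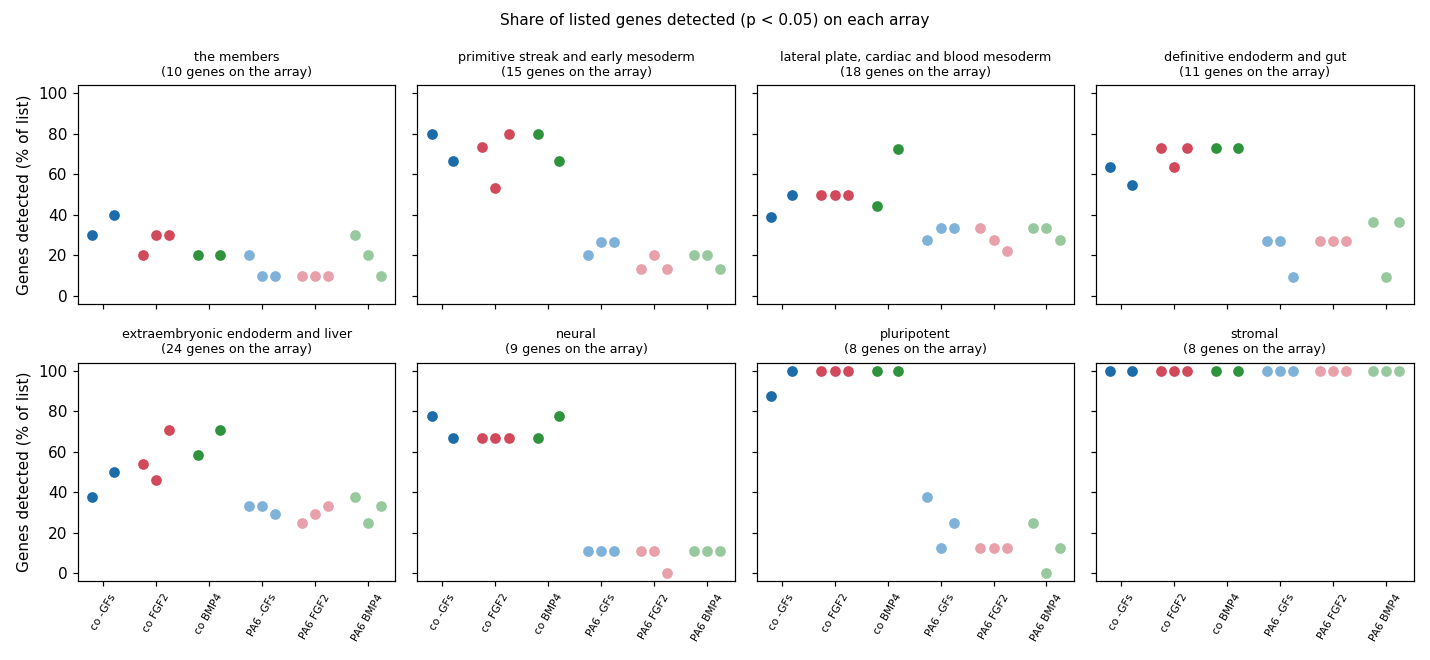
Share of the listed genes on the array (percent, vertical axis) with a detection p-value under 0.05 on each of the 16 arrays, for the members, 4 lineage lists and 3 marker lists. Points are arrays; the 8 stromal genes were detected everywhere, and the 9 neural and 8 pluripotent genes mainly in co-cultures.

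Markers of other cell types present in the cultures moved alongside. In the co-cultures, 7 of 8 pluripotent genes rose with FGF2 against -GFs medium and 3 of 8 with BMP4, while 1 of 6 neural genes fell in each (NES, -1.29 ± 0.23, adjusted p = 0.0248, with FGF2, and 0.125 without -GFs replicate 2; DCX, -1.54 ± 0.35, adjusted p = 0.0847, with BMP4, held in 1 of 7 fits with 1 array left out). ESRRB, a nuclear receptor of the pluripotent state, rose by 2.87 ± 0.28 with FGF2 (adjusted p = 0.00476) on the arrays where T was lower. Their part in the T values was not tested. Of the floor plate and choroid plexus genes, which share FOXA2 and TTR with endoderm, 6 were tested and FOLR1 rose with FGF2 (2.41 ± 0.29, adjusted p = 0.00834) and with BMP4 (1.61 ± 0.32, adjusted p = 0.0592; up to 0.284 and held in 3 of 7 fits with 1 array left out).

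Over the 7 co-culture arrays, the genes with values most like those of T were VARS, GIPC1 and TUBG1 (Pearson r = 0.975, 0.970 and 0.968), and those most like GATA6 were D230005E09RIK, LOC100045567 and TESSP2 (r = 0.984, 0.983 and 0.975). These are descriptions over 7 arrays that share their scan and normalization, and the highest of 14829 genes.

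Across the arrays, 37.3% to 47.0% of probes were detected and the median intensity was 177.9 to 232.2. Within a group, arrays correlated at 0.973 to 0.986 over the probes tested, and arrays of different kinds of culture at 0.723 to 0.797.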

How the data were processed

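RNA of 16 samples had been hybridized to Illumina MouseWG-6 v2.0 BeadChips. The authors deposited an average bead intensity per probe and array, not normalized between arrays, and a detection p-value, which says how many of the negative controls outshone it. The submitters' processing notes name GenomeStudio 2011.01. The authors' own comparisons used cubic-spline normalized values, which were not used here. Neither coordinates nor a genome build came with the probes; 10 of 10 members matched a symbol in the RefSeq gene table of GRCm38.p6.

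The 6 rows without a name were left out. Intensities were background corrected (normexp from the detection p-values), quantile normalized and put on the log2 scale with an offset of 16 (neqc, limma 3.58.1, R 4.3.3). After the detection filter 20880 probes remained, and the probe with the largest mean stood for its gene. Linear models with moderated variances were fitted to the 7 co-culture and the 9 PA6 arrays separately, and to all 16 for comparisons across cultures. P-values were adjusted over all 14829 genes. A bound is the brighter group's mean over the detection level of the dimmer group's arrays.

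Groups came from the sample titles. No slide was given, so 3 runs of columns in the table stood in for one. Replicate numbers paired the PA6 arrays with FGF2 and BMP4 (correlated deviations, r = 0.105 to 0.199), and not the co-cultures. Co-culture arrays of the same run did correlate above 0 (r = 0.0976 to 0.283). The labels number replicates without naming separate cultures for each, so p-values measure the spread between these samples. Alternatives covered the thresholds, the filter, background correction, scaling, the fit, blocks and leaving out each array. The model was tested on simulated data. The members, the lists of further genes and the tests were chosen with earlier results of these data known. All members are named; of each list, up to 2 called genes with the largest rise and 2 with the largest fall per comparison within the co-cultures; and the 3 genes most correlated with each tested member.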

Additional observations from a re-analysis of the deposited data

How the results depend on the processing

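The differences of T and GATA6 between co-cultures and PA6 cells kept their direction and call under every alternative that retained the gene; requiring detection on all 16 arrays removes T, which left 1 member called in each of these 3 comparisons. Median scaling moved the median of all genes in them to between 0.23 and 0.29 (main -0.04 to 0.03) and the share of calls that were higher in co-cultures from between 50.5% and 52.0% up to between 61.9% and 64.7%, with GATA6 at -3.46, -3.01 and -2.68. With FGF2 against -GFs medium in co-cultures, 1 member (T) was called with all 16 arrays in 1 fit (adjusted p = 0.0308), with a trend in the variance prior (0.0988) and with the column run block (0.0668), and 0 to 1 with 1 array left out. With BMP4 against -GFs medium the count was 0 to 1 with 1 array left out. The T difference ran from -2.34 to 0.16 there, from -0.58 to 1.93 for BMP4 against FGF2, and from -2.24 to 0.26 for its difference between cultures, each extreme set by which BMP4 co-culture array was left out. For the difference of the FGF2 effect between cultures, 1 member (T) was called without background correction, with an offset of 50, with the trend and with the column run block, and 0 to 1 with 1 array left out, as for BMP4. GATA6 with FGF2 in co-cultures turned to 0.018 under median scaling and ran from -0.20 to 0.11 with 1 array left out. The cause of these changes was not tested, except that leaving out a BMP4 array removes the spread between that pair from the error of T.

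Replicate numbers did not pair the co-culture arrays (deviations of same-numbered arrays correlated at -0.199 to 0.283). By run of columns, the 5 same-run pairs of co-culture arrays correlated at 0.0976 to 0.283 and the 11 others at -0.283 to 0.0976. In PA6 cells all 9 same-numbered pairs correlated above 0 (0.0697 to 0.199) and the 18 others below it (-0.136 to -0.0122), and the pairing rule, every r over 0.1, was met for FGF2 and BMP4 but not for -GFs medium. With the replicate block T differed by -1.62 with FGF2 (adjusted p = 0.242) and by -1.09 with BMP4 (adjusted p = 0.525), and no member's call changed, while 1.74% of all genes were called with BMP4 against -GFs medium and 0.0742% with BMP4 against FGF2. Over all alternatives the share of all genes called ran from 2.66% to 11.3% with FGF2 and from 0.342% to 5.87% with BMP4 against -GFs medium, from 0.0214% to 3.87% between the factors, and from 20.5% to 73.2% between cultures. In PA6 cells it ran from 0% to 0.486%. For the differences of effects it ran from 2.86% to 11.0% for FGF2 and from 1.13% to 4.81% for BMP4. Alternatives were run for 37 calls of listed genes named in the text, which leave out GATA3 with BMP4 against -GFs medium. Of these 37, 11 held under every alternative, 26 were lost under at least 1 (21 of them under one other than leaving out 1 array) and 0 were reversed.

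Groups of 2 or 3 arrays limit the precision of every value. For 8 of 10 genes no group was detected throughout and the signal was near background on nearly all arrays, which does not show that the transcripts were absent.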

Other observations

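Among the marker lists, surface ectoderm, trophoblast and endothelial genes also rose within the co-cultures. Of 7 surface ectoderm genes tested, 4 rose with BMP4 against -GFs medium and 5 against FGF2. Of these, KRT14 passed the detection filter through the co-cultures with BMP4, where it is high, so its calls are no independent support. KRT14, a basal keratin undetected in -GFs co-cultures, was at least 110-fold higher with BMP4 (limma adjusted p = 0.0174; 0.106 without BMP4 replicate 1), and TRP63, the p63 factor of basal epithelium, at least 20.3-fold higher (adjusted p = 0.00251). Against FGF2 they differed by 6.54 ± 0.85 (SE; adjusted p = 0.0370; up to 0.110 with 1 array left out) and 4.51 ± 0.31 (adjusted p = 0.00292) on the log2 scale.

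Of 10 trophoblast genes on the array, 3 were tested, of which 1 rose with FGF2 and 3 with BMP4 against -GFs medium. TCFAP2C, an AP-2 factor also found in germ cells and surface ectoderm, rose with FGF2 (2.25 ± 0.21, adjusted p = 0.00451) and with BMP4 (2.02 ± 0.23, adjusted p = 0.0130). KRT7, a simple keratin, rose with BMP4 against -GFs medium (1.97 ± 0.27, adjusted p = 0.0210) and against FGF2 (1.54 ± 0.25, adjusted p = 0.0633; up to 0.292 with 1 array left out), and GATA3 against -GFs medium (1.58 ± 0.28, adjusted p = 0.0410) and against FGF2 (1.97 ± 0.25, adjusted p = 0.0353; up to 0.234).

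Of 4 endothelial genes tested, PECAM1, an adhesion molecule of vessels that pluripotent cells also carry, rose with FGF2 (3.24 ± 0.42, adjusted p = 0.00980) and with BMP4 (1.98 ± 0.46, adjusted p = 0.0880; up to 0.361 with 1 array left out). TEK, an angiopoietin receptor undetected in -GFs co-cultures, rose at least 5.86-fold with FGF2 (adjusted p = 0.00451) and at least 3.28-fold with BMP4 (adjusted p = 0.0260; up to 0.141). Within the pluripotent list, TDGF1 rose with FGF2 (2.89 ± 0.56, adjusted p = 0.0305; up to 0.146), ZFP42 and ESRRB with BMP4 (1.75 ± 0.37, adjusted p = 0.0707, and 1.36 ± 0.30, adjusted p = 0.0815; up to 0.297 and 0.279), and ESRRB and FGF4 were lower with BMP4 than with FGF2 (-1.51 ± 0.28 for each, adjusted p = 0.0892 for each; up to 0.311 and 0.370).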
